A study of Homo sapiens with 9 samples.

Results

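The A431 Ctrl line was compared with the parental A431 cells it was derived from, with all genes taken as members of the comparison. Ctrl and parental cells made up 6 of the 9 libraries in the series, with 3 libraries each, and mutant p53 was kept in both. A431 is an epidermoid carcinoma cell line that expresses an endogenous mutant p53 and a high level of EGFR. By its label, the Ctrl line was stably established after CRISPR transfection with an empty vector, and the p53 KO line, with 3 libraries, was also made by CRISPR. All cells were grown in DMEM with 10% serum and were harvested 48 h after settling in 6-well plates. The labels give growth as single colonies for every library, parental cells included, so how far parental cells differ from Ctrl in having passed through a colony is not settled by them. No label ties the 3 libraries of a group to separate cultures. The p-values therefore measure the spread between libraries within the groups, p53 KO included, which may be technical. With 1 Ctrl line, the colony, the transfection and the time in culture cannot be told apart.

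A cell line is a mixed population, and a line grown from a colony carries the gene activity of the cell that founded it, including genes silenced or switched on in that cell. Squamous carcinoma cells keep parts of the keratinocyte programme, in which keratins and proteins of the cornified envelope mark maturation. Collagens, matrix proteases and transforming growth factor ligands are more typical of cells that build and remodel matrix. A control line of this kind is the usual reference for a knockout line made in the same way.

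Standard errors (SE, n = 3 libraries per group) are of log2 fold changes of Ctrl over parental from edgeR's quasi-likelihood fit, and adjusted p-values are Benjamini-Hochberg values over all genes tested. Library totals ran from 19783778 to 28123063 counts in Ctrl and from 21512265 to 26280390 in parental cells. Among the 6 libraries, Ctrl library 1 stood apart. Correlations across genes, which are not independent replicates, were 0.988 and 0.9858 between Ctrl library 1 and the other Ctrl libraries, against 0.9943 between those other libraries and 0.995 to 0.9951 within parental cells. The main counts are therefore also given without Ctrl library 1. The keratinocyte markers TP63, KRT5 and ITGB4 were abundant in both lines, while KRT14 held 0 to 3 counts and SOX2 0 to 2 counts per library. Of the 13 keratinocyte markers tested, 2 were higher and 3 lower in Ctrl at an adjusted p of 0.05, and 4 were higher and 3 lower of 14 without Ctrl library 1. Summed levels in CPM, which are counts scaled to library size, were 2.83 to 3.79 in Ctrl and 3.95 to 4.45 in parental libraries for fibroblast markers, nearly all from COL1A1, with COL3A1, PDGFRA and DCN at 0. They were 1.47 to 2.24 and 1.44 to 2.13 for haematopoietic markers, with PTPRC at 0, 0.859 to 1.17 and 0.495 to 0.697 for endothelial markers, with KDR at 0, and 8.85 to 13.4 and 10.4 to 12.6 for melanocyte markers, with TYR and SOX10 at 0. PECAM1 (at most 13 counts) and PMEL (at most 43 counts) passed the test as higher in Ctrl, and the part of such cells in any result was not tested beyond these levels. Fewer cells of a type and less RNA per cell cannot be told apart in bulk RNA.

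Of 14513 genes tested, 281 genes (1.94% of all tested) were called, with an adjusted p of at most 0.05 and a log2 fold change above 1.5 in size. In Ctrl, 97 of them were higher (0.668%) and 184 were lower (1.27%). By adjusted p alone, 2943 genes passed (20.3%), of which 1536 were higher (10.6%) and 1407 lower (9.69%). Most of these differences were small, with 2336 of the 2943 below 1 on the log2 scale. The normalised counts of the lines did not overlap in 6365 genes (43.9%), and in all 281 called genes. Many called genes were weakly expressed, and 72 reached a mean normalised count of 100 in the higher line, 28 of them higher and 44 lower in Ctrl. In 55 called genes, every library of 1 line held 3 counts or fewer. With 3 counts set in each such library, 13 called genes had a log2 fold change of 1.5 or less in size, and AUTS2, with 2, 2 and 1 counts in parental and 0 in Ctrl libraries, has no meaningful fold. Without Ctrl library 1, 283 genes were called, 100 higher and 183 lower, and 238 of them were shared with the 281.

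**Figure D1:**
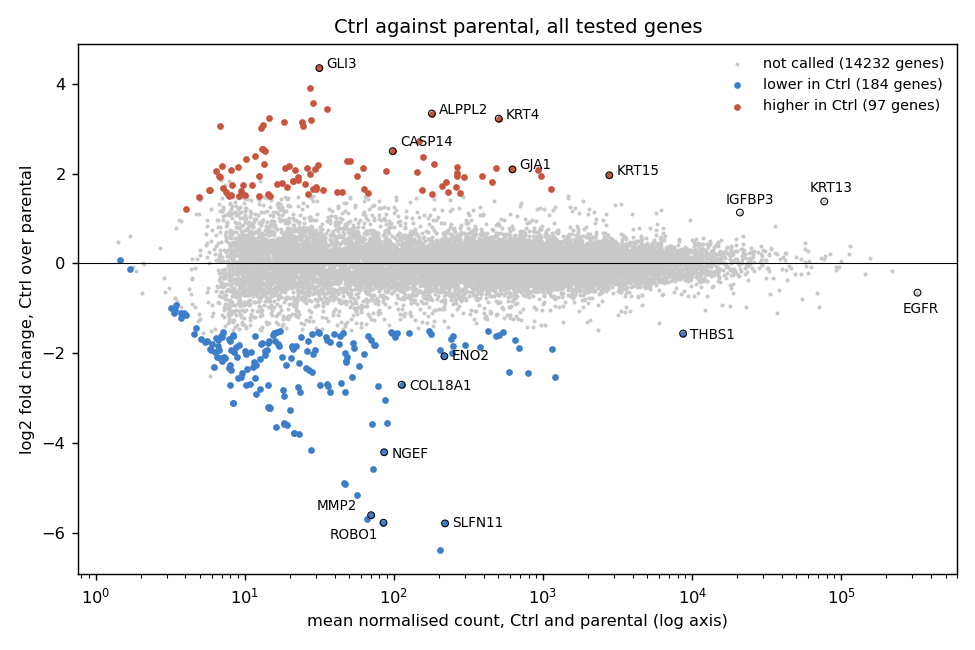
Log2 fold change of Ctrl over parental (vertical axis) against the mean normalised count of the 6 libraries (horizontal log axis) for the tested genes, each point 1 gene, with called genes in colour and some named genes circled. Genes with 3 counts or fewer in each library of a line are drawn with 3 counts in each of those libraries, and AUTS2 is left out; the 184 lower genes reach further from 0 than the 97 higher genes.

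Ctrl cells had no RNA, or almost none, from 12 genes that parental cells expressed. These genes had at least 20 counts in each parental library and at most 3 in each Ctrl library, and 7 of them had no count in any Ctrl library. The reverse pattern, a gene gained in Ctrl, was found for GLI3 alone. The upstream sequences of ROBO1, RAB4A and COL6A2 are shown because these are 3 of the genes with the largest parental counts and none in Ctrl. CG dinucleotides, the sites of DNA methylation in human cells, are marked, but methylation was not measured. Each line gives 250 bases before a start, 5′ to 3′ on the gene's strand and in lower case with CG in capitals, from the RefSeq promoter table of build GRCh38.p14.
ROBO1, distal start: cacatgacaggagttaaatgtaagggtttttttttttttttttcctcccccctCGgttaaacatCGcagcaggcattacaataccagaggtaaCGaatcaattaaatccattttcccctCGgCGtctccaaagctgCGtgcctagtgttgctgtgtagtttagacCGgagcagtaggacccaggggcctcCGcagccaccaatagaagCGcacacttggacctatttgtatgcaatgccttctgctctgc
ROBO1, proximal start: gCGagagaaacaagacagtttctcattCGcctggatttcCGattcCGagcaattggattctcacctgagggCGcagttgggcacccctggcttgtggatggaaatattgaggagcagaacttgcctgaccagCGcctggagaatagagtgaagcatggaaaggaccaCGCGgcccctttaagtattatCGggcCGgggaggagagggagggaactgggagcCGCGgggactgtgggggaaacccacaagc
RAB4A: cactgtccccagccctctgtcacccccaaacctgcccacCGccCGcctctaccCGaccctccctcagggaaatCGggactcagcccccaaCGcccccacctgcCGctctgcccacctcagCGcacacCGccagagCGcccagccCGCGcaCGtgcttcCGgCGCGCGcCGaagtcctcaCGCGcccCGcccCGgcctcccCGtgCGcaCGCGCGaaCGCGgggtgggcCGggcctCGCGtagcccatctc
COL6A2: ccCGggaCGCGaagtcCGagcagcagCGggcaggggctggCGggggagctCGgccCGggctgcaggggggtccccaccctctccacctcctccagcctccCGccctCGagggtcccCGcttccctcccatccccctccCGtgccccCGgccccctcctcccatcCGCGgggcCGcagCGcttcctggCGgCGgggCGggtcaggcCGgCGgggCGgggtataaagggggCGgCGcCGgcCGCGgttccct

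The distal ROBO1 sequence lies at chr3:79767999-79768248 and the proximal one at chr3:79019460-79019709, both on the minus strand. The RAB4A sequence is chr1:229270861-229271110 and the COL6A2 sequence chr21:46097862-46098111, both on the plus strand. They held 9, 12, 31 and 28 CG dinucleotides in this order. Over 14026 starts of tested genes in the same table the median was 20, with quartiles of 12 and 28. As many CG dinucleotides as in the distal ROBO1 sequence were present before 80.7% of those starts, and as many as in RAB4A before 17.3%. Of the 13 genes, 10 outside chromosome 8 had 14 starts in the table, and 10 of those starts held 10 or more, against 79% of all starts. The lost genes thus covered CpG-poor and CpG-rich starts.

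ROBO1, a receptor for SLIT guidance ligands on chromosome 3 (78597239 to 79767998), had 195, 144 and 162 counts in parental cells and 0 in each Ctrl library. Against a floor of 3 counts per library it was at least 54.9-fold lower in Ctrl. Its counts in p53 KO cells were 662, 580 and 327, above all parental libraries. ADD2, which encodes the beta subunit of the membrane skeleton protein adducin, had 108, 97 and 75 counts in parental cells and 0 in all 6 Ctrl and p53 KO libraries. It was at least 30.4-fold lower in Ctrl and is the only one of the 12 that was also at 3 counts or fewer in all p53 KO libraries. RAB4A, a small GTPase of endosomal recycling, had 107, 89 and 78 counts in parental and 0 in Ctrl cells, at least 29.8-fold lower. In p53 KO cells it had 102, 93 and 60 counts. COL6A2, a chain of collagen VI, had 72, 56 and 38 counts in parental and 0 in Ctrl cells, at least 17.9-fold lower. EYA1, a transcriptional coactivator, ADCY1, an adenylyl cyclase, and the pseudogene MEIS3P1 were also at 0 in Ctrl, at least 13.7-fold, 11.9-fold and 9.35-fold lower. MEIS3P1 can share reads with the MEIS genes it resembles, so its value is uncertain.

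The remaining lost genes kept a few reads. EPHB6, an Eph receptor without kinase activity, had 124, 134 and 76 counts in parental and 1, 3 and 3 in Ctrl cells. The ratio of parental to Ctrl was 48.0, with an exact 95% counting interval of 23.1 to 120.0. Its p53 KO counts were 429, 394 and 317. The calcium channel gene TRPV6 lies 114 bases beyond EPHB6 on chromosome 7, on the opposite strand, and had 27, 29 and 28 counts in parental and 0, 2 and 0 in Ctrl cells, a ratio of 42.3 (11.3 to 355.0). The strand setting of the counting is not given in the sources used here, so reads of these facing genes may not be separated. EDNRB, an endothelin receptor, and LINC01285, a long noncoding RNA, kept 1 read in Ctrl cells from 124 and 111 in parental cells. HLA-F, a non-classical HLA class I gene that can share reads with other HLA genes, had 34, 28 and 24 counts in parental and 1, 0 and 0 in Ctrl cells, a ratio of 86.6 (15.1 to 3460.0). In p53 KO cells HLA-F had 84, 76 and 60 counts. GLI3, a transcription factor of Hedgehog signalling, had 1, 1 and 0 counts in parental and 38, 80 and 73 in Ctrl cells, a ratio of Ctrl to parental of 94.9 (25.9 to 789.0), and 82, 52 and 34 in p53 KO cells. These intervals cover counting error only. The number of gained genes was 4 without parental library 1, 2 without parental library 2 and 2 without Ctrl library 1, and the number of lost genes ran from 12 to 15 with each library left out in turn.

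**Figure D2:**
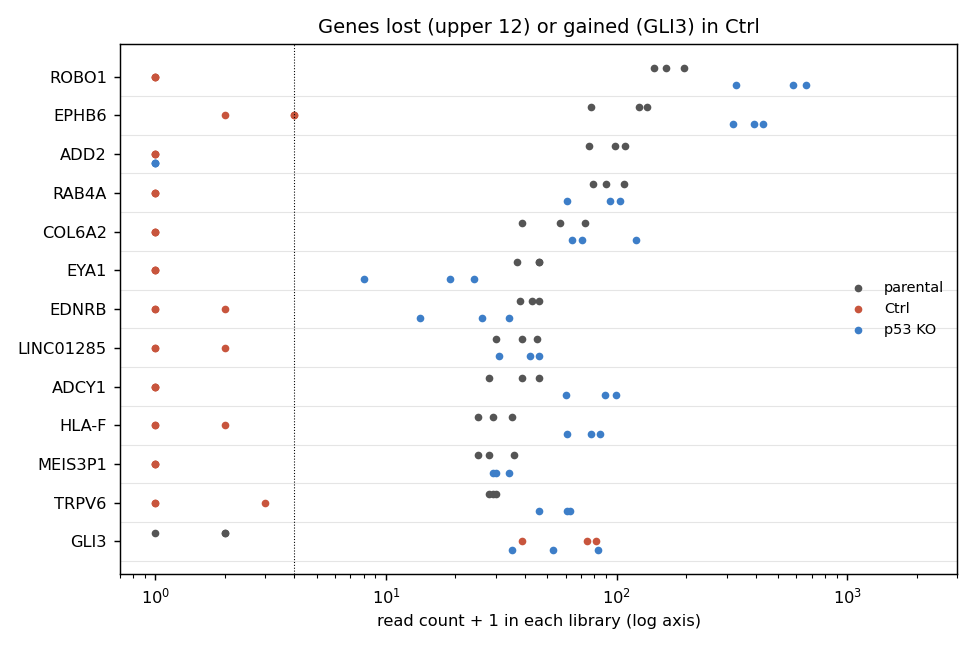
Read count plus 1 in each library (horizontal log axis) of the 12 genes lost and the gene gained in Ctrl, with 1 point per library and colours for parental, Ctrl and p53 KO; the dotted line marks 3 counts. All Ctrl points of the 12 upper genes lie on or left of the line, and only ADD2 has its p53 KO points there as well.

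More abundant genes were also almost without RNA in Ctrl. SLFN11, which sensitises cells to DNA damage, had 417, 437 and 445 normalised counts in parental and 3, 11 and 8 in Ctrl cells, a log2 fold change of -5.79 ± 0.23 (adjusted p = 1.5e-07). Normalised counts are CPM multiplied to a library of 24931314 reads. The neighbouring SLFN13 was lower as well (-4.43), while SLFN11 in p53 KO cells stood at 523, 534 and 422. MMP2, a gelatinase, had 136, 129 and 147 normalised counts in parental and 5, 3 and 1 in Ctrl cells (-5.61 ± 0.26), and 388, 405 and 438 in p53 KO cells. Parental cells thus lay between the other lines for MMP2. SERPINB9, an inhibitor of granzyme B, went from 140, 142 and 133 to 1, 7 and 8 (-4.58 ± 0.27). NGEF, an exchange factor that acts with Eph receptors, went from 165, 152 and 173 to 8, 12 and 6 (-4.21 ± 0.23). INHBA, a subunit of activin, went from 173, 122 and 104 to 9, 14 and 10 (-3.58 ± 0.27). NRIP3 (-5.71 ± 0.35) and POF1B, which binds actin (-2.74 ± 0.23), completed the lowest protein-coding genes beside ROBO1, EPHB6 and COL6A1. As in all 281 called genes, no Ctrl library overlapped a parental library in any of them. The long noncoding RNA AC079466.1 on chromosome 19, named after its values were seen, had a larger fitted decrease than SLFN11, from 403, 460 and 334 counts in parental to 3, 4 and 7 in Ctrl cells (-6.39 ± 0.21), and had 7458, 6300 and 3976 counts in p53 KO cells.

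Of the protein-coding genes called higher that reached a mean of 100 normalised counts in Ctrl, the 10 with the largest fold changes included ALPPL2, KRT4, SCEL and GJA1. KRT4, a keratin of mucosal epithelium, had 105, 95 and 91 normalised counts in parental cells and 993, 937 and 802 in Ctrl cells, a log2 fold change of 3.23 ± 0.12 (adjusted p = 1.0e-07). In p53 KO cells KRT4 stood at 657, 568 and 615. SCEL, a precursor of the cornified envelope, rose from 164, 172 and 204 to 650, 902 and 799 (2.13 ± 0.13). CASP14, the caspase of cornification, rose from 28, 30 and 31 to 160, 184 and 156 (2.5 ± 0.19), and p53 KO cells had 915, 675 and 642. PIGR, the polymeric immunoglobulin receptor (2.73 ± 0.17), SLPI, a secreted protease inhibitor (2.14 ± 0.15), ALDH3A1, an aldehyde dehydrogenase (2.22 ± 0.19), and RARRES1, a gene induced by retinoic acid (2.38 ± 0.16), were higher in each Ctrl library than in each parental library, as were all genes called higher. RARRES1 had no count in p53 KO cells. GJA1, which encodes connexin 43, rose from 239, 244 and 227 to 867, 997 and 1168 (2.10 ± 0.13), against 39, 53 and 35 in p53 KO cells, and NECTIN3, a cell adhesion molecule, rose by 2.12 ± 0.25. ALPPL2, an alkaline phosphatase, rose by 3.34 ± 0.20, and its close copy ALPP was called higher too (1.66), so their reads may be split uncertainly.

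**Figure D3:**
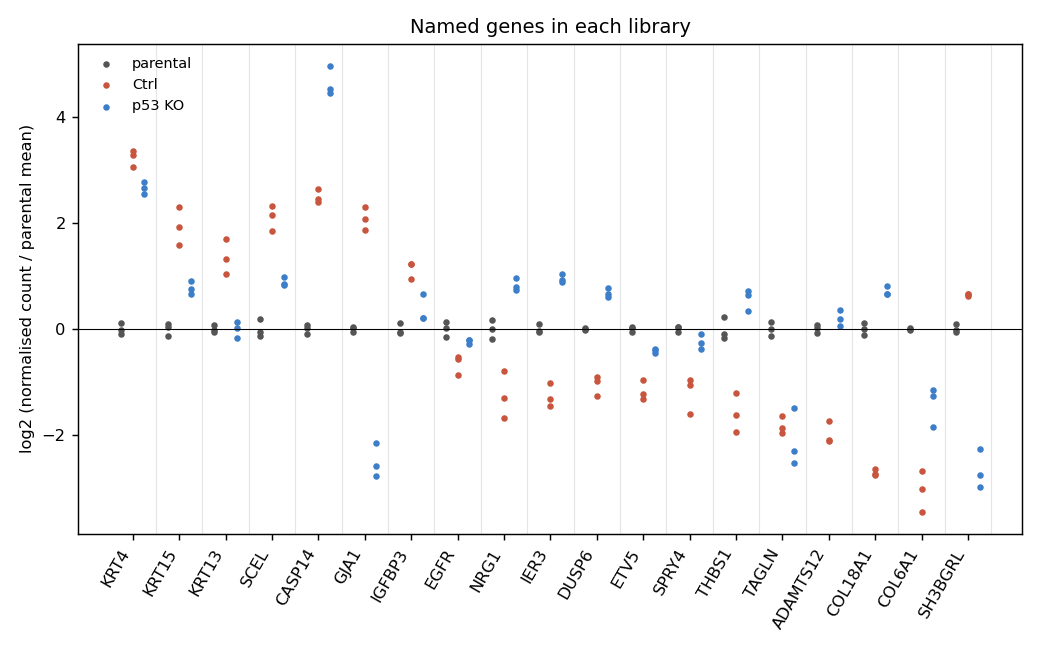
Log2 of the normalised count over the parental mean (vertical axis) for 19 named genes, with 1 point per library and colours for parental, Ctrl and p53 KO. Ctrl points of the first 7 genes, from KRT4 to IGFBP3, lie above all parental points, and those from EGFR to COL6A1 lie below them; SH3BGRL lies above parental in Ctrl and below it in p53 KO libraries.

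Across gene groups, each described by how many members passed an adjusted p of 0.05, the background was the 20.3% of all tested genes that passed, with a median log2 fold change of 0.0029. That background itself moved between 1379 genes without parental library 1 and 4375 without Ctrl library 3. With the 6 Ctrl and parental libraries alone, 1869 of 14123 genes passed. Comparisons of p53 KO with parental cells use the same parental libraries, so their values are given side by side and are not independent of those for Ctrl.

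**Figure D4:**
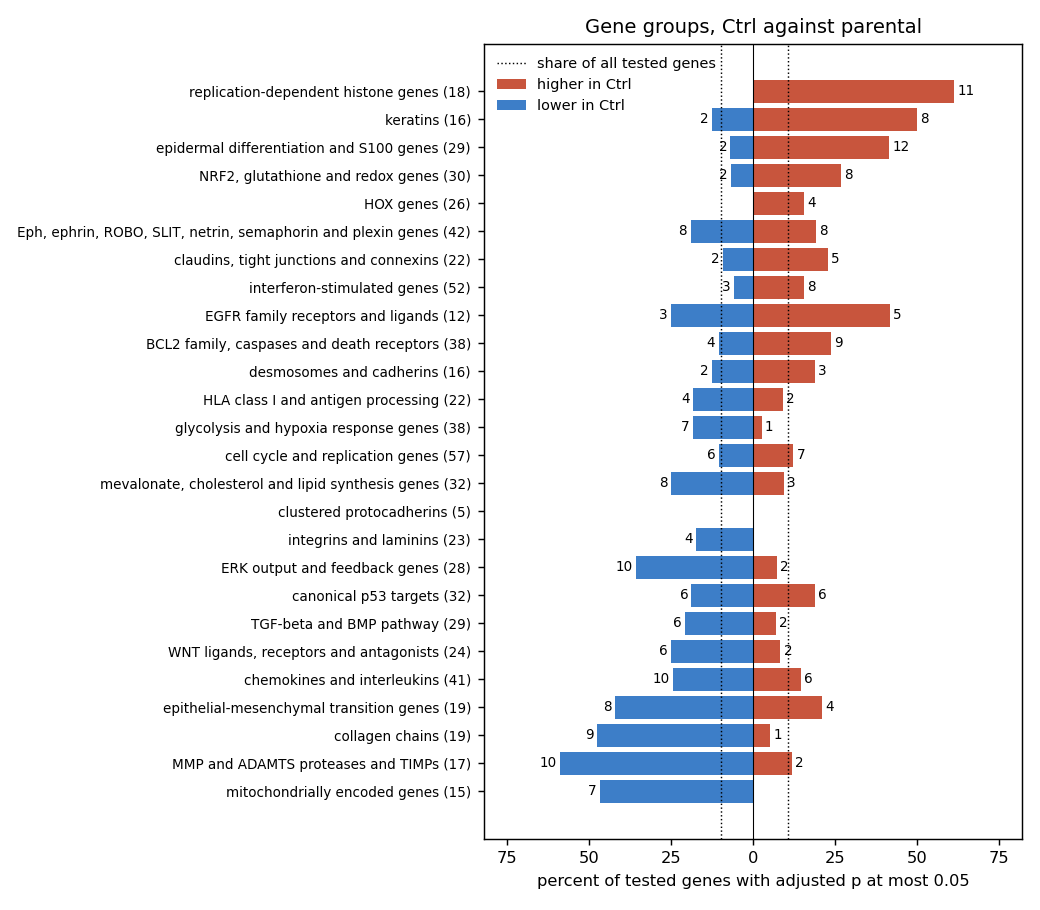
Percent of the tested genes of each group (number tested in parentheses) that were higher (right) or lower (left) in Ctrl at an adjusted p of at most 0.05, with the number of genes at the bar ends; dotted lines mark the shares of all tested genes, 10.6% higher and 9.69% lower. Histone, keratin, EGFR family and epidermal genes extend furthest to the right, and matrix proteases, collagens and mitochondrial genes to the left.

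Of 16 keratins tested, 8 were higher and 2 lower, with a median log2 fold change of 0.436. KRT13, the usual partner of KRT4, was among the most abundant RNAs and rose from 40958, 42024 and 45080 to 138890, 106890 and 87623 normalised counts (1.38 ± 0.14). KRT15, a basal keratin, rose by 1.96 ± 0.16 and KRT5, a further basal keratin, by 0.45 ± 0.08. KRT19 was higher by 1.05 ± 0.31 but passed the test in 1 of 6 fits with a library left out. The keratins that were lower were KRT17 (-0.63 ± 0.12) and KRT6A (-0.40 ± 0.10), which mark activated keratinocytes, and KRT6A, whose reads may mix with those of its copies, missed the threshold without parental library 1 (adjusted p = 0.0826) and without Ctrl library 2. KRT8 and KRT18, the simple epithelial pair, gave 0.17 and 0.10 and did not pass. The counts were 7 higher and 2 lower without Ctrl library 1, with 17 keratins tested, and 5 higher without parental library 2 or 3.

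Genes of epidermal differentiation and the S100 family showed a like picture, with 12 higher and 2 lower of 29 tested (median 0.348). S100P rose from 191, 179 and 233 to 909, 579 and 628 normalised counts (1.81 ± 0.18). ZNF750 (1.29) and GRHL3 (0.85), transcription factors of keratinocyte differentiation, and CALML3 (1.38) and CALML5 (0.58), calmodulin-like proteins of epithelia, were higher in Ctrl, whereas GRHL3 in p53 KO cells was at -2.04. S100A9 (1.75 ± 0.40) and TGM5, a transglutaminase (1.51 ± 0.39), were called on few reads and missed the threshold without parental library 1, S100A9 also without Ctrl library 2 and TGM5 without parental library 2. SPINK5, a protease inhibitor of the epidermis (-2.36 ± 0.54, at most 16 normalised counts), and KLK6 (-0.56) were lower, though neither passed without Ctrl library 2. The counts were again 12 and 2, of 30 tested, without Ctrl library 1, and 7 genes were higher without parental library 1 or 2.

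Of 19 collagen chains tested, 9 were lower and 1 higher, with a median of -0.377 (-0.399 with COL6A2 at its bound). COL6A1, the neighbour of COL6A2 on chromosome 21, went from 157, 155 and 154 normalised counts to 24, 19 and 14 (-3.04 ± 0.21). COL18A1, a basement membrane collagen, went from 179, 196 and 212 to 29, 29 and 31 (-2.70 ± 0.13), while p53 KO cells had 309, 309 and 341. COL18A1 also lies on chromosome 21 (45405165 to 45513720), before COL6A1, which begins at 45981770. COL12A1 (-0.97), COL7A1 (-0.88), COL27A1 (-0.73), COL4A1 (-0.67) and COL4A2 (-0.42) were lower as well, and COL13A1 (-2.92 ± 0.71) was called on at most 12 normalised counts. COL13A1 missed the threshold without parental library 2 (adjusted p = 0.0662) or Ctrl library 2. With 3 counts set in each Ctrl library it was at -1.43, below the size set for a call. COL4A6, at 0.93, was the exception, and no chain was higher without parental library 1 or 3. Among matrix proteases and their inhibitors, 10 of 17 tested were lower and 2 higher (median -0.591). ADAMTS12, a secreted metalloprotease, went from 410, 394 and 368 to 117, 91 and 90 (-1.99 ± 0.13), and ADAMTS9 from 29, 35 and 22 to 0, 1 and 0. The inhibitors TIMP1 (-0.75) and TIMP2 (-0.59) were lower, TIMP3 was higher (0.84), and MMP14, an activator of MMP2 at the cell membrane, gave 0.10 without passing the test. TIMP1 lies on chromosome X (47582408 to 47586789), in a stretch that was lower in Ctrl and is described below. Summed over the protease and inhibitor list, CPM was nevertheless higher in Ctrl (at least 1969) than in parental cells (at most 1422), a sum made up mostly of TIMP3, with 25909, 26975 and 23330 counts in parental and 38160, 55295 and 44159 in Ctrl cells. Without Ctrl library 1 the counts were 9 lower and 1 higher of 20 collagens, and 9 lower and 2 higher of 18 proteases and inhibitors. The latter fell to 5 lower without parental library 1 and 6 without Ctrl library 2.

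Genes of epithelial-mesenchymal transition moved in both directions, with 8 lower and 4 higher of 19 tested (median -0.224). THBS1, a matrix glycoprotein, went from 15240, 11584 and 12145 normalised counts to 3365, 4216 and 5605 (-1.56 ± 0.18) and stood at 16382, 21358 and 20158 in p53 KO cells. TAGLN, an actin-binding protein, went from 115, 105 and 125 to 37, 32 and 29 (-1.83 ± 0.21) and was also low in p53 KO cells (-2.01). The transcription factors SNAI1 (-0.77) and SNAI2 (-0.49) were lower. OVOL2 (1.10 ± 0.19), which keeps epithelial identity, and RAB25 (0.62), an epithelial GTPase, were higher. VIM, the mesenchymal filament protein, went the other way from most of the list at 1.32 ± 0.38, on at most 32 normalised counts in Ctrl, and passed in 2 of 6 fits with a library left out. ZEB2 was higher by 0.60, and E-cadherin (CDH1) gave 0.01. In the fit without Ctrl library 1, 9 genes were lower and 3 higher, and 2 were higher without parental library 1, parental library 2 or Ctrl library 2.

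Ligands of the transforming growth factor family were lower where they changed most. INHBA is described above. TGFB2 went from 72, 79 and 81 to 3, 12 and 19 normalised counts (-2.67 ± 0.32), against 146, 187 and 167 in p53 KO cells, and BMP6 from 32, 38 and 22 to 10, 6 and 4 (-2.26 ± 0.34). LTBP2, a matrix protein (-0.89), FST, an activin antagonist (-0.60), and the receptor TGFBR1 (-0.51) were lower. GDF15, a divergent family member induced by stress, rose from 74, 106 and 118 to 378, 399 and 269 (1.82 ± 0.20), and ID1, a target of bone morphogenetic proteins, was higher by 0.68. In all, 6 of 29 tested genes were lower and 2 higher (median -0.117), and 7 and 2 without Ctrl library 1.

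EGFR, the receptor that A431 cells overproduce, was lower in Ctrl. It was the most abundant RNA of all 3 parental libraries. Normalised counts were 431810, 357930 and 399490 in parental and 216040, 266350 and 274210 in Ctrl cells (-0.65 ± 0.10, adjusted p = 0.0013), and 342190, 342630 and 325010 in p53 KO cells. In Ctrl library 1, ACTB was more abundant. Of 12 receptors and ligands of the EGFR family tested, 3 were lower and 5 higher. NRG1, a ligand of the related receptors, went from 862, 665 and 765 to 238, 309 and 437 (-1.21 ± 0.18), and ERRFI1, a feedback inhibitor of EGFR, was at -0.49. ERBB2 (0.44), ERBB3 (0.60) and the ligands BTC (0.82 ± 0.17), NRG4 (0.43) and EGF (1.94 ± 0.32) were higher, EGF on 9 to 45 normalised counts. The ligands TGFA (-0.28), EREG (-0.48), AREG (0.11) and HBEGF (0.00) did not pass the test. The counts were 4 lower and 5 higher without Ctrl library 1, and 5 genes of the family were lower without Ctrl library 3.

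Genes that read out ERK signalling, the pathway below EGFR, were lower more often than higher. Of 28 tested, 10 were lower and 2 higher, with a median of -0.10. IER3, an immediate early gene, went from 982, 1072 and 971 to 495, 366 and 403 normalised counts (-1.27 ± 0.11), and DUSP6, a phosphatase of ERK, from 253, 249 and 245 to 103, 132 and 125 (-1.04 ± 0.11). In p53 KO cells both stood above all parental libraries (1864, 1912 and 2062 for IER3, and 423, 395 and 380 for DUSP6). SPRY4, a feedback inhibitor (-1.17 ± 0.15), ETV5, a transcription factor induced by ERK (-1.16 ± 0.10), ETV4 (-0.49), SPRED1 (-0.46), SPRED3 (-0.78), DUSP4 (-0.39) and FOSL1 (-0.57) were lower in Ctrl. JUNB (0.64) and IER2 (0.34), immediate early genes like IER3, were higher. The largest change of the list in size was upward, at 1.75, in a gene that did not pass the test. Without Ctrl library 1 the counts were 9 lower and 5 higher, 1 of the latter called. Without parental library 1 they were 6 lower and 1 higher. The higher count was also 1 without parental library 2, parental library 3 or Ctrl library 2. With DESeq2 in place of edgeR, 11 of 29 genes were lower and 5 higher, 1 of the latter called.

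Cytokine genes were reduced in part. Of 41 chemokines, interleukins and receptors tested, 10 were lower and 6 higher (median -0.214). IL32 went from 76, 51 and 68 normalised counts to 13, 7 and 8 (-2.87 ± 0.30). The chemokine CCL5 (-1.96 ± 0.41), the growth factor CSF2 (-1.92 ± 0.38) and the receptor IL7R (-1.72) were called lower, and each of them was higher than parental in p53 KO cells (1.39, 1.43 and 1.44). IL1A, an alarmin of keratinocytes, was at -1.14, and IL1RN, its antagonist, at 0.91, both past the adjusted p. CXCR2, a chemokine receptor, rose from 1, 7 and 8 to 56, 39 and 37 (3.05 ± 0.51). There were 11 lower and 6 higher without Ctrl library 1.

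Interferon-stimulated genes changed about as often as all genes, with 8 higher and 3 lower of 52 tested, or 21.2% against 20.3% (median 0.06). OAS1 rose from 353, 430 and 423 to 1215, 990 and 875 normalised counts (1.35 ± 0.13), XAF1 from 30, 27 and 24 to 76, 68 and 78 (1.45 ± 0.15), and GBP2 by 1.16 ± 0.18. RSAD2 (-0.81) and EPSTI1 (-0.85 ± 0.20) were lower in Ctrl, while in p53 KO cells they were at 5.40 and 1.28. Lower genes numbered 1 without parental library 1 and 5 without Ctrl library 3. The number of higher genes was 9 without Ctrl library 1, 14 without Ctrl library 3 and 5 without parental library 1, parental library 2 or Ctrl library 2. In the HLA and antigen processing list, 4 of 22 genes were lower and 2 higher, with 8 higher without Ctrl library 3 and 1 without parental library 1. Apart from HLA-F these were led by NLRC5, the activator of HLA class I genes (-0.72 ± 0.09), and PSMB10, a subunit of the immunoproteasome (0.90 ± 0.15).

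Several genes of cell death were higher. Among 38 BCL2 family, caspase and death receptor genes tested, 9 were higher and 4 lower (median 0.028). CASP1, the caspase of inflammasomes, rose from 52, 50 and 66 to 231, 216 and 239 normalised counts (2.04 ± 0.14). CARD16, which resembles part of CASP1 and lies beside it, was called too (2.13), so their reads may be split uncertainly. BMF, a BH3-only protein, rose from 36, 34 and 31 to 165, 144 and 119 (2.07 ± 0.21), and TNFSF10, the ligand TRAIL, from 125, 136 and 124 to 398, 358 and 280 (1.42 ± 0.16). BIRC3, an inhibitor of apoptosis, was at -0.77, and MCL1 at -0.29. Leaving out Ctrl library 1 gave 8 higher and 3 lower, without parental library 1, 5 were higher, and without parental library 2 or 3, 2 were lower.

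Genes that act with or downstream of p53 were read in both lines, which have mutant p53. MDM4, an inhibitor of p53 (-0.70 ± 0.19), and USP7, a deubiquitinase of the pathway (-0.34 ± 0.10), passed the adjusted p, but each missed it in 4 of 6 fits with a library left out, those without any 1 parental library and without Ctrl library 2. MDM2 gave -0.38 ± 0.14 (adjusted p = 0.08), TP63 -0.07 ± 0.17 and PPP1R13L 0.17 ± 0.08. Of 32 canonical p53 targets tested, 6 were higher and 6 lower, none was called, and the median was -0.109. PHLDA3 rose from 828, 788 and 802 to 1501, 1236 and 1145 normalised counts (0.68 ± 0.11). BBC3 was at 0.87 ± 0.24, CDKN1A at -0.52 ± 0.15 and BTG2 at -0.61 ± 0.15, and each of these 3 missed the threshold in at least 3 fits with a library left out. Higher targets numbered 5 without Ctrl library 1 and 3, 2 and 3 without parental library 1, 2 and 3, and lower targets 2, 3 and 3 without parental library 1, parental library 2 and Ctrl library 2.

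SH3BGRL, an adaptor protein with a thioredoxin-like fold that the study follows, was higher in Ctrl than in parental cells. Normalised counts were 177, 183 and 197 in parental, 285, 292 and 293 in Ctrl and 38, 27 and 24 in p53 KO cells. The difference of Ctrl from parental was 0.64 ± 0.12 on the log2 scale (adjusted p = 0.0037), below the size set for a call, and the groups did not overlap. MERTK, a receptor for apoptotic cells, went from 35, 35 and 39 to 8, 15 and 11 (-1.64 ± 0.25) and was at 6, 5 and 7 in p53 KO cells. AXL, a receptor related to MERTK, went from 12396, 11762 and 10990 to 6530, 7129 and 7659 (-0.72 ± 0.09), and MFGE8, a bridge to apoptotic cells, was at -0.56. TYRO3, the remaining receptor of that family, was at 0.22. CDC42EP3, an effector of CDC42, was at -0.73 ± 0.10, and MSN and FSCN1, which organise actin, were at -0.53 and -0.39.

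Beside GJA1, other cell junction genes were higher. TJP3, a scaffold of tight junctions, rose from 104, 145 and 118 to 554, 491 and 356 normalised counts (1.93 ± 0.17), and the claudins CLDN1 (0.82 ± 0.09) and CLDN7 (1.08 ± 0.18) rose as well, with 5 higher and 2 lower of 22 tested. Among desmosomal and cadherin genes JUP was higher (0.39 ± 0.08) and CDH13 lower (-1.12 ± 0.18), with 3 higher and 2 lower of 16. Integrins and laminins had 4 lower and none higher of 23, or 17.4% against 20.3% of all tested genes. Among them ITGB5 was at -0.53 ± 0.07 and LAMA3, a chain of laminin 332, at -0.60 ± 0.13. In that list ITGA1 and ITGA2 missed the threshold in at least 3 fits with a library left out. Guidance receptors and ligands split evenly, 8 higher and 8 lower of 42, between UNC5B, a netrin receptor (1.22 ± 0.13), and ROBO1, EPHB6 and ROBO3 (-1.17 ± 0.25). Of 24 WNT genes, 6 were lower and 2 higher, with DKK3 from 218, 221 and 225 to 84, 95 and 88 (-1.30 ± 0.10), ROR1 at -1.22 ± 0.16 and WNT10A at 1.70 ± 0.20. These counts fell when a library was left out, to 2 integrins and laminins lower without any 1 of the parental libraries, 1 desmosomal or cadherin gene higher without parental library 1 or 2, 5 guidance genes lower without any 1 of the parental libraries or 5 higher without Ctrl library 2, and 3 WNT genes lower without parental library 1 or 3. Without Ctrl library 1, 5 desmosomal and cadherin genes were higher, and the junction counts stayed at 5 higher and 2 lower of 22.

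The redox list, with targets of NRF2, had 8 higher and 2 lower of 30 tested (median 0.197), led by AKR1C2 (1.95 ± 0.25), AKR1C1 (1.65 ± 0.19) and AKR1C3 (1.29 ± 0.21), near-identical copies whose reads may be split uncertainly. Its higher genes numbered 7 without Ctrl library 1, 3 without parental library 1 and 13 without Ctrl library 3. Of 32 genes of sterol and lipid synthesis, 8 were lower and 3 higher, with HMGCS1, an enzyme of the mevalonate pathway, at -0.92 ± 0.08. Of 38 genes of glycolysis and hypoxia, 7 were lower and 1 higher, or 21.1% against 20.3% of all tested genes. ENO2 went from 327, 380 and 349 to 85, 72 and 95 (-2.07 ± 0.12), and BNIP3 was at -0.84 ± 0.08. Cell cycle and replication genes gave 7 higher and 6 lower of 57, or 22.8%, also near the share of all tested genes. They fell to 0 higher and 1 lower without parental library 1 and 0 and 2 without parental library 2. Without parental library 3 they were 1 and 1, and without Ctrl library 2 they were 1 and 3. The glycolysis list fell to 3 or 4 lower without 1 of the parental libraries and had 8 higher without Ctrl library 3, and the sterol list had 5 lower without parental library 3 and 6 higher without Ctrl library 3. HOX genes gave 4 higher of 26 (15.4% against 20.3%), between 0.33 and 0.56, and 1 or 2 without 1 of the parental libraries. None of 5 clustered protocadherins tested passed, nor did the only cancer testis gene tested. The fit without Ctrl library 1 gave 9 lower and 3 higher sterol genes, 9 lower and 1 higher glycolysis genes, 7 lower and 5 higher cell cycle genes and 3 higher HOX genes.

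Histone and mitochondrial RNAs, which a poly(A) library can capture unevenly, are given together. Replication-dependent histone genes, most of whose mRNAs lack a poly(A) tail, were higher in 11 of 18 tested and lower in none, with a median of 0.72, and the same counts were found without Ctrl library 1. HIST1H1C rose from 1215, 1351 and 1110 to 3299, 2851 and 2404 normalised counts (1.22 ± 0.13) and HIST1H2BK by 1.09 ± 0.12. The summed level was 481.9 CPM or more in each Ctrl library and 281.1 CPM or less in each parental library. Mitochondrially encoded genes were lower in 7 of 15 tested (median -0.922), but in 0 without parental library 2, in 4 without parental library 3, in 2 without Ctrl library 2 and in 10 without Ctrl library 1. They took 0.814% to 1.175% of counts in Ctrl and 1.393% to 2.703% in parental libraries, with parental library 2 the highest. The part of RNA quality or capture in these and the other gene groups was not tested.

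Among the 500 genes most abundant in parental cells, THBS1, MT-ND4L (-1.32 ± 0.40), MT-ND4 (-1.11 ± 0.35), KRT13 and IGFBP3 moved most. IGFBP3, a secreted binder of insulin-like growth factors, rose from 12620, 12459 and 14165 to 30498, 30473 and 25123 normalised counts (1.13 ± 0.13), and p53 KO cells had 20663, 15133 and 15134. MT-ND4 missed the threshold in 5 of 6 fits with a library left out, and MT-ND4L without parental library 2 or Ctrl library 2.

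Whole stretches of chromosomes differed together between the lines. In 147 windows of 20 Mb with at least 20 expressed genes, the median log2 fold change was above 0.2 in size in 7, with 3 higher and 4 lower in Ctrl. The largest shift was on chromosome X from 40 to 60 Mb, where the median of 70 genes was -0.586. Medians by library, relative to the parental mean, were -0.514, -0.616 and -0.679 in Ctrl, 0.017, -0.002 and -0.013 in parental and 0.119, 0.133 and 0.178 in p53 KO cells. In steps of 5 Mb all 9 genes from 40 to 45 Mb and all 41 genes from 45 to 50 Mb were lower in Ctrl, 38 of the latter past the adjusted p. From 35 to 40 Mb, 4 of 5 genes were lower (median -0.815). The run ended between CLCN5, which ends at 50099235 (-1.39), and TSPYL2, which begins at 53082367 (-0.09). From 50 to 55 Mb, 7 of 13 genes were lower, with a median of -0.025. Abundant genes before that end were DDX3X, an RNA helicase (-0.73 ± 0.12), UBA1, the ubiquitin-activating enzyme (-0.72 ± 0.07), and RBM3, an RNA-binding protein (-0.62 ± 0.08). Those after it were SMC1A, a cohesin subunit (-0.34 ± 0.13, adjusted p = 0.093), and HUWE1, a ubiquitin ligase (-0.21 ± 0.20). DNA copy number was not measured.

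On chromosome 18, from 0 to 20 Mb, 41 genes had a median of -0.358 in Ctrl and -0.264 in the p53 KO line, both relative to the same parental libraries. YES1, a kinase of the SRC family, went from 7634, 7638 and 7936 to 3408, 5332 and 5574 normalised counts (-0.70 ± 0.15), and PPP4R1, a phosphatase subunit, was at -0.33 ± 0.07. VAPA (-0.24 ± 0.08), TUBB6 (-0.20 ± 0.10) and MYL12B (-0.05 ± 0.09), also among the most abundant genes there, did not pass. In the next 5 Mb with genes, from 20 to 25 Mb, the median was 0.018. Chromosome 22 was higher over both windows from 0 to 40 Mb (0.286 over 25 genes and 0.243 over 148 genes), and lower from 45 to 50 Mb (-0.208 over 23 genes). On chromosome 3 from 120 to 140 Mb, Ctrl had a median of 0.206 and the p53 KO line a median of -0.348. The windows on chromosomes 12 (20 to 40 Mb, -0.223) and 4 (120 to 140 Mb, -0.205) rested on Ctrl library 1, whose medians were -0.465 and -0.517 against at most 0.114 in size in the other Ctrl libraries. With each library left out in turn, 3 windows stayed shifted in all 6 fits, those on chromosomes X and 18 and the first on chromosome 22. The number of shifted windows was 5 without Ctrl library 1, 18 without Ctrl library 2 and 24 without Ctrl library 3.

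**Figure D5:**
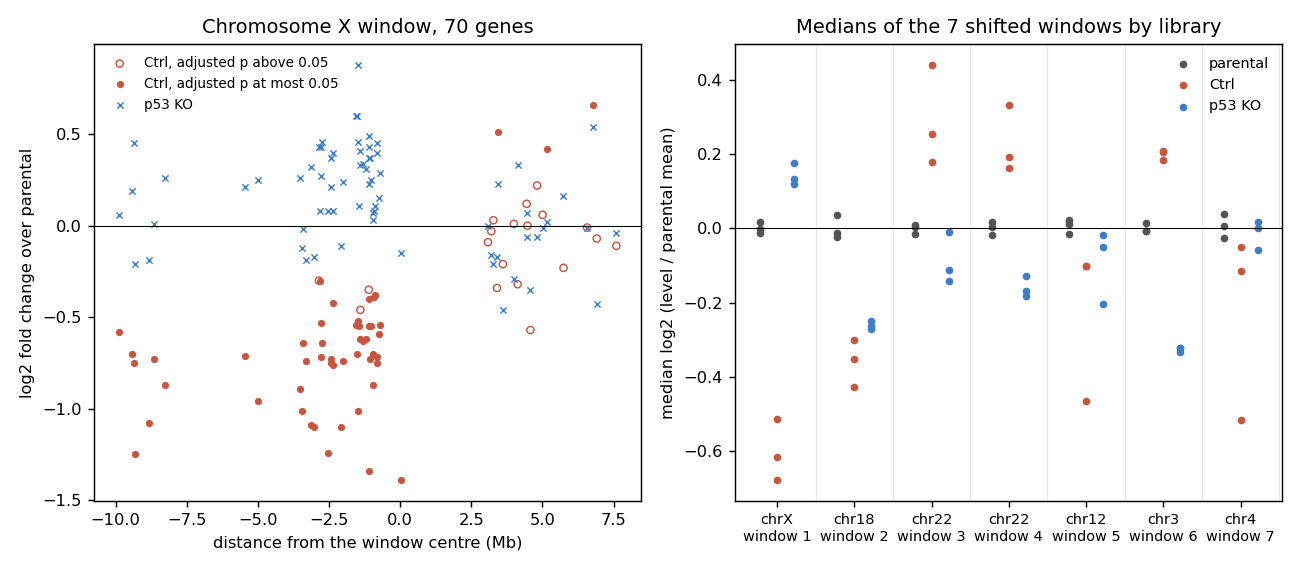
Left, log2 fold change over parental of the 70 genes in the chromosome X window by distance from its centre in Mb, for Ctrl (filled where the adjusted p is at most 0.05) and p53 KO (crosses). Right, median log2 level relative to the parental mean of the 7 shifted windows, with 1 point per library; the Ctrl medians of the chromosome X window run from -0.679 to -0.514, below all other libraries.

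Some called genes also lay next to each other. Among 11317 pairs of neighbouring tested genes no more than 100 kb apart, both members were called in the same direction in 19 pairs, 16 of them lower and 3 higher. There were 17 such pairs without Ctrl library 1, 14 of them lower and 3 higher. These pairs held 36 of the 281 called genes, with 1.94% of all tested genes called. A run of adjacent RP11-44F14 transcripts on chromosome 16 gave several of the lower pairs, so the pairs are not all separate. How many pairs would arise without regard to position was not tested. This search was added after the values were seen. The lower pairs of protein-coding genes were EPHB6 and TRPV6, COL6A1 and COL6A2, SLFN11 and SLFN13, NGEF and INPP5D, ERO1B and EDARADD, ZNF114 and EMP3, and NIPAL4 and ADAM19. NIPAL4 and ADAM19 overlap on opposite strands, so their reads may not be separated. The higher pairs were AKR1C1 and AKR1C2, CASP1 and CARD16, and ALPP and ALPPL2, all pairs of similar sequence. Others paired a gene with an overlapping or adjacent noncoding RNA, such as THBS1 with CTD-2033D15.2 and PMEPA1, a transforming growth factor target (-1.82), with NKILA (-2.30), for which shared reads cannot be told apart without the strand setting.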

How the data were processed

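RNA from A431 parental, Ctrl and p53 KO cells was measured in 3 strand-specific poly(A) libraries per group, sequenced as paired-end 75 bp reads. The authors aligned reads with STAR 2.5.1b to GRCh38 and deposited featureCounts counts per gene (Ensembl annotation), without normalization; the strand setting is not given in the sources used here. From these counts, 14513 of 58051 genes passed edgeR's filterByExpr (minimum count 10). Groups were compared by the quasi-likelihood test of edgeR 4.0.16 (R 4.3.3) on all 9 libraries, with TMM normalization and Benjamini-Hochberg adjustment. A call needed an adjusted p of at most 0.05 and a log2 fold change above 1.5 in size. The fit was tested on simulated data.

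Named genes were the p53 family and SH3BGRL, the 10 highest and 10 lowest called protein-coding genes with a mean of at least 100 normalised counts, lost and gained genes, up to 4 genes per list, the 5 largest changes among the 500 most abundant genes, and abundant genes of shifted windows and markers. Other list members that passed, or that are needed beside them, were named after their values were seen. The targeted gene and some lists are not reported here. Members and the 34 lists were chosen with earlier results of these data known. Alternatives were DESeq2 1.42.0, other normalization, filters, thresholds and windows, a replicate block and each library left out. Replicate numbers did not pair Ctrl with parental libraries (deviation correlations of -0.123, -0.111 and -0.035). Gene positions come from GENCODE 44, matched for 14397 genes. An exact permutation test of 3 against 3 libraries cannot go below p = 0.1 and was not used.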

Additional observations from a re-analysis of the deposited data

How the results depend on the processing

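The number of called genes, 281, stayed within 1.5 times under DESeq2 (287, of which 266 were shared), edgeR scaled by DESeq2 size factors (280), a filter of 1 count only (397), the 6 libraries alone (234) and the replicate block (263, of which 259 were shared). The replicate block gave 1691 genes at an adjusted p of 0.05 against 2943 without it. No Ctrl library correlated best with the parental library of its own number. Requiring 10 counts in every library left 86 calls, 37 higher and 49 lower, a setting that removes genes near 0 in 1 line. A test against 1.5 (glmTreat) called 64, 14 higher and 50 lower, and a threshold of 1 called 607, 256 higher and 351 lower. With each library left out, calls ran from 256 to 350, with 88 to 131 higher and 162 to 219 lower. Of the 281 genes, 185 stayed called in all 6 of these fits and none changed sign.

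Lost genes numbered 7 with 0 counts as absent and 4 with at least 50 counts as present, and 12 to 15 with each library left out. Gained genes numbered 0 under both settings and 1 to 4 with each library left out. In windows of 10 Mb, 13 were shifted, the largest by -0.709 (X, 40 to 50 Mb). With each library left out, 5 to 24 windows of 20 Mb were shifted, the largest by -0.658 to -0.561. Of the 137 named genes past an adjusted p of 0.05, 102 stayed past it with any 1 library left out, and none of the 137 changed sign. Of the named genes that had not passed, some changed sign when a library was left out, such as TP63 (-0.07, at most 0.13) and KRT16 (-0.09, at most 0.28). Neighbouring pairs called in one direction, an alternative chosen after seeing the data, ran from 17 to 23. Counts of 3 or fewer per library set the limit of detection, so folds of genes absent in 1 line are bounds.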
